A study of Homo sapiens with 12 samples.

Results

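Antisense transcripts are RNAs made from the strand opposite to another gene, and a large class of them carries the name of that gene followed by AS and a number. In the count files, 1216 of 57133 genes had such a name, apart from EPB41L4A-AS1, which was set aside. The 188 described here were chosen by their level, a mean over the 3 libraries of at least 1 CPM (the count scaled to library size) in at least 1 of 4 groups of cells. The other 1028 stayed below that level in every group, 465 of them with no count in any library. Just inside this limit were GATA2-AS1 (highest group mean 1.01 CPM), ATP2C2-AS1 (1.03 CPM) and RARA-AS1 (1.04 CPM), and just outside it NDUFB2-AS1 (0.994 CPM), HOXC-AS1 (0.991 CPM) and VIM-AS1 (0.988 CPM).

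The cells were MCF10-A, an established human line of breast epithelium that does not form tumours, carrying a transgene under a doxycycline-inducible promoter. All 4 groups received 50 ng/ml doxycycline and were collected at day 5, with 3 biological replicates each according to the series description, which does not say whether these were separate cultures. The mVenus group expressed the fluorescent protein mVenus alone and serves as the control, the p16 and p21 groups expressed mVenus fused to p16 or to p21, inhibitors of cyclin-dependent kinases that arrest the cell cycle, and all 3 received the solvent DMSO per the protocol. The p16 with Torin2 group expressed mVenus-p16 and received 100 nM Torin2, an inhibitor of the growth kinase mTOR, so the drug was given in p16 cells only and is compared with p16. Libraries of polyadenylated RNA held 13168749 to 18321114 assigned counts. All 10 breast epithelial markers looked at reached 1 CPM, and their sum was 7021 to 7284 CPM in mVenus, 15142 to 15775 in p16, 7471 to 7677 with Torin2 added and 8764 to 9042 in p21. Of 5 leukocyte markers CD3E and TYROBP had no count and CD14 alone reached 1 CPM (means of 15.6 in mVenus, 35.3 in p16, 15.1 with Torin2 added and 21.9 in p21), and of 4 endothelial markers PECAM1 and KDR did, with means of at most 1.39 and 2.5 CPM in any group. Fibroblast markers summed to 20.9 to 21.4 CPM in mVenus, 109.5 to 116 in p21, 6.74 to 7.17 in p16 and 5.61 to 5.85 with Torin2 added, with COL1A1 and DCN the only 2 of 6 at 1 CPM. In p21 DCN was higher than in mVenus (108.6 against 11.2 CPM) and COL1A1 lower (3.83 against 9.53 CPM). The part of these marker shifts in the values below was not tested.

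Antisense transcripts often begin at the promoter of their sense partner and run away from it, or start inside or beyond the partner and run into it. Some, such as ZEB1-AS1, have been described as acting on the partner gene, while others, such as OIP5-AS1, act elsewhere in the cell as RNAs, and for most no role is known. Because the partners share a stretch of DNA, the way each transcript lies against its partner is given first. In the GENCODE 29 annotation on GRCh38, 137 of the 188 were of the antisense biotype, 25 processed transcripts, 20 lincRNAs and 1, NCBP2-AS2, protein-coding. A partner of the plain name was in the files for 186. The starts overlapped for 81, so that the pair shared its 5′ ends, and the 3′ ends overlapped for 41. Another 26 began back to back with no overlap, 22 lay wholly inside the partner, 13 had the partner inside them and 3 lay tail to tail. The start was within 1000 bases of the partner's start for 71.

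Counting bears on all values below. The library kit keeps the strand, but reads were counted without it, so a read from the partner's strand that falls on an exon of the antisense gene alone is not told apart from one of the antisense transcript. Reads on bases that belong to exons of both genes were left unassigned and are missing from both. Exonic bases shared with another gene made up a median of 7.96% of a transcript's exonic bases, with none shared for 42 transcripts and over 30% for 23. For 45, over 50% of the exonic bases lay in introns of the partner, where unspliced RNA of the partner would be counted as antisense.

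The promoters of 4 genes with large changes or high levels are shown: those of TMPO-AS1 and TMPO, neighbours that fell together, RASSF8-AS1, which fell in p16 and not in p21, and LRRC75A-AS1 (SNHG29 in RefSeq), the most abundant member and the 1 that Torin2 raised most in CPM. Each is 300 bases, from 250 before to 50 after the start in RefSeq on GRCh38.p14, on the strand of the gene. The outermost start in GENCODE 29, used for counting, lies farther upstream for the antisense genes. It is 98516422 for TMPO-AS1 (RefSeq 98516226), 25959765 for RASSF8-AS1 (25959442) and 16438822 for LRRC75A-AS1 (16438987). The window of RASSF8-AS1 thus lies wholly downstream of its GENCODE start. Capitals mark the CCAAT box (CCAAT), the cell-cycle homology region (TTTGAA) and an E2F word (TTTCCCGC, TTTCGCGC, TTTGCCGC or TTTGGCGC), searched on both strands.
TMPO-AS1 (chr12:98516177-98516476, minus strand): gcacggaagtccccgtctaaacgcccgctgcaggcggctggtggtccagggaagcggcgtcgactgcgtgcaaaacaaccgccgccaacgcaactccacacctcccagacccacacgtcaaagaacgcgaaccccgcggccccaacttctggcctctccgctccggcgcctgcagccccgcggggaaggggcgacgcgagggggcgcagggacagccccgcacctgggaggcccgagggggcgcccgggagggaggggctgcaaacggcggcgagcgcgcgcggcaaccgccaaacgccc
TMPO (chr12:98515323-98515622, plus strand): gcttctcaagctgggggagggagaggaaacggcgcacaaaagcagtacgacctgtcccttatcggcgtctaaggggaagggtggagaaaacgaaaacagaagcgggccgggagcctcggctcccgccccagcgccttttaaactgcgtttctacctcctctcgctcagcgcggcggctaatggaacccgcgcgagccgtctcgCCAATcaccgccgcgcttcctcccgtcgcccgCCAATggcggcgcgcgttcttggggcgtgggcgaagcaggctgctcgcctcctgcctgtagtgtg
RASSF8-AS1 (chr12:25959393-25959692, minus strand): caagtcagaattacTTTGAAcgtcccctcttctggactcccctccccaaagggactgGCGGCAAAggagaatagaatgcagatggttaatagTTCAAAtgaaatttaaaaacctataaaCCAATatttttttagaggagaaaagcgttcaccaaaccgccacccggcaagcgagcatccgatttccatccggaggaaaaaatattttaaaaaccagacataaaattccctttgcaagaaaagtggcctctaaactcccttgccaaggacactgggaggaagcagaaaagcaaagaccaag
LRRC75A-AS1 (chr17:16438737-16439036, plus strand): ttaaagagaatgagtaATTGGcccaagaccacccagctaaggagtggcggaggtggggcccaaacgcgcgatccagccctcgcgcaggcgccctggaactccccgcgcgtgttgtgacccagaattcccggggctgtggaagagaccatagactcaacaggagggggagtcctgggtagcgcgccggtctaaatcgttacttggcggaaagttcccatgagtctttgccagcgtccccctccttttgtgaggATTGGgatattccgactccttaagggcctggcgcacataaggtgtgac

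The window of TMPO-AS1 held none of these words, that of TMPO held 2 CCAAT boxes, that of RASSF8-AS1 held all 3 kinds, and that of LRRC75A-AS1 held 2 CCAAT boxes. RefSeq has a promoter window for 145 of the 188 transcripts. Of these, 130 were matched by symbol and the others by Ensembl gene identifier or an older symbol. An E2F word was in 4.83% of these windows against 3.33% of all 27305 promoter windows, the cell-cycle homology word in 8.97% against 15.4%, and CCAAT in 31% against 35.7%. The median window held 24 CpG dinucleotides against 14 over all genes. A match describes the letters only.

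Most of the transcripts were scarce. The median of their mean over 12 libraries was 1.94 CPM, and 16 reached 10 CPM. Of the 188, 117 were at 1 CPM or more in all 4 groups, 22 in 3, 20 in 2 and 29 in a single group. Per kilobase of exon, the median antisense transcript stood at 0.552 CPM per kb in mVenus and the median partner at 4.56 CPM per kb, and the antisense transcript was above its partner in 43 of 186 pairs in mVenus, 47 in p21, 48 in p16 and 50 with Torin2 added. The 6 highest were LRRC75A-AS1, a host gene of small nucleolar RNAs (266 CPM over 12 libraries), OIP5-AS1, a long non-coding RNA known to bind a microRNA and an RNA-binding protein (241 CPM), FGD5-AS1 (98.0 CPM), NOP14-AS1 (36.8 CPM), OTUD6B-AS1 (26.2 CPM) and WAC-AS1 (20.9 CPM). Neither WAC-AS1 nor OTUD6B-AS1 was called in any comparison, and WAC-AS1 measured 20.4 ± 1.26 CPM (SD, n = 3) in mVenus, 21.3 ± 0.939 in p21, 20.9 ± 1.42 in p16 and 21 ± 1.40 with Torin2 added. CDKN2B-AS1, antisense to the locus of p15 and p16, had no count in any library, and 3 reads over a group's libraries would be 0.0611 CPM in mVenus and 0.0655 CPM in p21.

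**Figure D1:**
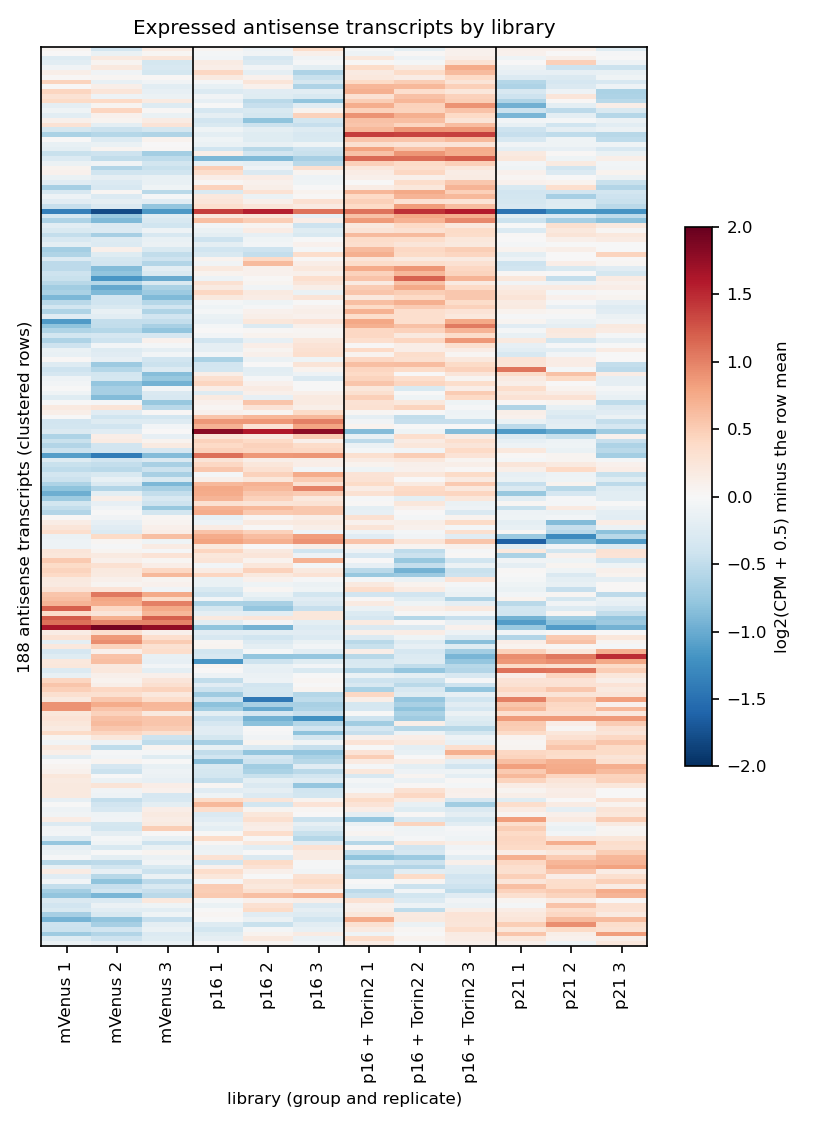
Each row is 1 of the 188 antisense transcripts and each column 1 library; the colour is log2(CPM + 0.5) minus the row's mean, with rows ordered by clustering on these same values. The 3 libraries of a group look alike, blocks of rows are high in p21, in p16 or under Torin2, and a small block, TMPO-AS1 in it, is high in mVenus alone.

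The edgeR quasi-likelihood test was run over 14504 genes, which include all 188 transcripts; rose, fell and called mean a Benjamini-Hochberg adjusted p under 0.05 in that fit, and changes are log2 fold changes ± SE. In p16 against mVenus 67 transcripts rose and 30 fell, while among all genes 30.9% rose and 32.8% fell. In p21 against mVenus 71 rose and 14 fell, against 28.2% and 28.3% of all genes. With Torin2 against p16, 53 rose and 24 fell, against 30.3% and 29% of all genes. In p21 against p16, 40 were higher and 37 lower, against 27.2% and 27.2%. The median log2 fold change of the transcripts was 0.32, 0.31, 0.13 and -0.01 in that order, and of all genes 0.00, 0.00, 0.02 and -0.01. Since a transcript high in only 1 group was taken in through that group, the counts were also taken over the 153 transcripts whose mean over all 12 libraries was at least 1 CPM. Of these, 58 rose and 25 fell in p16, where 32.5% and 34.5% of all genes past the same limit did, and 60 rose and 9 fell in p21, where 29.8% and 30% did. That mean still takes in transcripts high in some groups only, such as CALML3-AS1. Of the 117 at 1 CPM or more in all 4 groups, 44 rose and 16 fell in p16, and 47 rose and 4 fell in p21. The share of all genes past that stricter limit was not taken. These counts describe the transcripts beside all genes and no test of the set was made. LINC genes at 1 CPM or more, 94 long intergenic RNAs, gave 35 higher and 16 lower in p16, and 35 higher and 11 lower in p21. The comparisons with mVenus share its libraries, so their values stand side by side only.

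**Figure D2:**
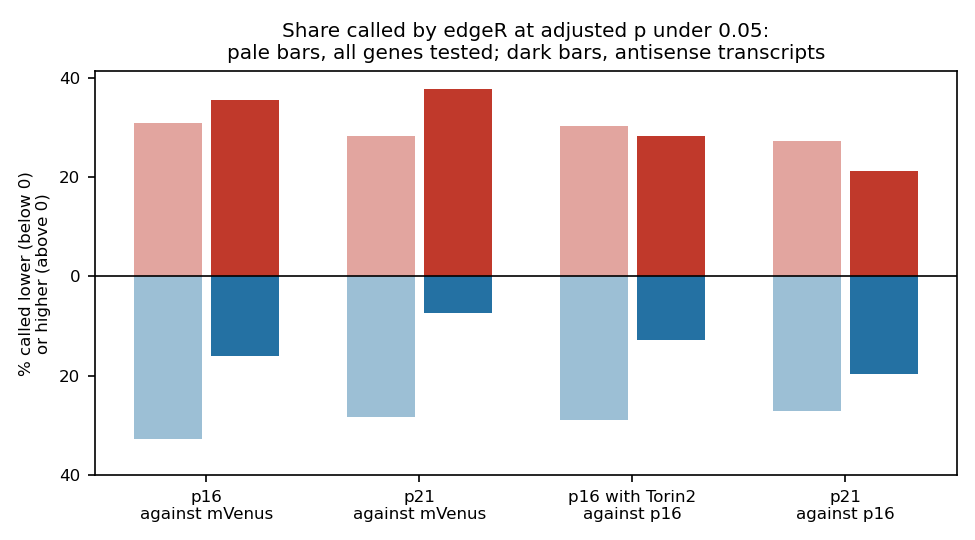
Percent called higher (above 0) and lower (below 0) in each comparison, pale bars for all 14504 genes tested and dark bars for the 188 antisense transcripts. In p21 against mVenus the dark bars reach 37.8% higher and 7.45% lower, and in p21 against p16 they reach 21.3% and 19.7%.

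Some of the transcripts reached 1 CPM in a single group. Their difference from that group is partly set by the choice, so it is given below as a description; those with values below are TMPO-AS1, UNC5B-AS1 and GAS6-AS1 (mVenus), GATA2-AS1 (mVenus), AFAP1-AS1 (p16) and WNT5A-AS1 (p21). The same holds for transcripts at 1 CPM in some groups only, such as CALML3-AS1 (p16 with and without Torin2) and LURAP1L-AS1 (p16 and p21). Transcripts named for the largest changes were picked among those whose libraries did not overlap, so that separation is not a separate result. TMPO-AS1 fell steeply in both arrested groups and starts beside TMPO, the gene of the nuclear lamina protein LAP2. TMPO-AS1 (chr12:98512973-98516422, minus strand) measured 2.89, 3.57 and 3.19 CPM in mVenus, 0.120, 0.0639 and 0.392 in p16, 0.391, 0.385 and 0.651 in p16 with Torin2, and 0.147, 0 and 0.0628 in p21. Every arrested library was below every mVenus library. Its change in p16 was -3.92 ± 0.39, and -4.89 without p16 replicate 3. In p21 only 3 reads were counted against 156 in mVenus, a CPM ratio of 48.6 with an exact 95% interval of 16.3 to 238 from counting error alone. TMPO itself fell by less, from 119, 119 and 127 CPM to 37.9, 43.0 and 49.7 in p16 (-1.38 ± 0.07) and to 31.3, 32.9 and 33.0 in p21 (-1.84 ± 0.07). Of the exonic bases of TMPO-AS1, 21.2% are shared with TMPO. In p16 the fitted fall of GATA2-AS1, looked at after its values were seen, was deeper still, with 2 reads against 50 in mVenus, a CPM ratio of 24.2 (exact 95% interval 6.36 to 205.5). Whether fewer cells made the transcript or each cell held less of it cannot be told apart in these bulk libraries, here or below.

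Several more transcripts were highest in mVenus. SH3PXD2A-AS1, which lies in introns of SH3PXD2A, a scaffold gene of invasive cell protrusions, measured 12.0, 11 and 11.1 CPM in mVenus, 4.52, 5.11 and 4.58 in p16, and 2.20, 2.83 and 3.02 in p21. The 3 groups do not overlap, and it was also lower in p21 than in p16 (-0.84 ± 0.15, edgeR adjusted p = 9.08e-05). RUSC1-AS1 went from 9.22, 6.38 and 9.11 CPM in mVenus to 4.28, 4.48 and 4.38 in p16, 2.80, 2.31 and 2.54 with Torin2 and 1.69, 2.09 and 1.95 in p21, with no overlap between the groups and with 31% of its exonic bases shared with other genes. Its changes were -0.82 ± 0.15 in p16, -0.82 ± 0.17 with Torin2 and -2.04 ± 0.17 in p21, while RUSC1 changed by -0.36, -0.11 (not called) and -0.20. HOXA-AS2, from the HOXA gene cluster, fell in p16 (3.44, 4.71 and 4.44 CPM to 2.17, 1.41 and 1.77; -1.11 ± 0.23) and not in p21 (4.32, 3.20 and 4.27 CPM; -0.02 ± 0.21). Its level in p21 was above that in p16 by 1.09 ± 0.24 (edgeR adjusted p = 5.64e-04).

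RASSF8-AS1 shows the same contrast between the arrested groups. It measured 10.5, 8.28 and 8.76 CPM in mVenus, 3.13, 2.43 and 3.34 in p16, 4.17, 2.89 and 4.16 with Torin2, and 8.72, 7.31 and 8.73 in p21. The p21 and mVenus libraries overlapped, and all p16 libraries were below both. The change was -1.53 ± 0.16 in p16, -0.09 ± 0.13 in p21 and 1.43 ± 0.16 in p21 against p16 (edgeR adjusted p = 2.12e-07). RASSF8, its partner and a member of a family of putative tumour suppressors, changed by -1.23 ± 0.07, -0.03 ± 0.06 and 1.2 ± 0.07 in the same comparisons. The starts of the pair are 736 bases apart and 0.929% of the antisense exonic bases are shared.

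Among the transcripts that rose in p16, CALML3-AS1 had the largest change. CALML3 encodes a calmodulin-like protein of epithelia. CALML3-AS1 measured 0.273, 0.0759 and 0.398 CPM in mVenus, 4.70, 5.37 and 3.73 in p16, 3.72, 5.00 and 5.46 with Torin2, and 0.220, 0.369 and 0.377 in p21. The groups with p16 stood far above the other two, and the comparison of Torin2 with p16 was not called (log2 fold change 0.00 ± 0.19). The rise was 4.19 ± 0.31 in p16 (edgeR adjusted p = 3.24e-10), and the difference of p21 from p16 was -3.82 ± 0.31. Both are partly set by the choice at 1 CPM, which CALML3-AS1 reached only in the groups with p16. CALML3 itself stayed at or below 0.196 CPM in every library.

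TMEM51-AS1 rose in both arrested groups. It measured 1.04, 0.759 and 1.31 CPM in mVenus, 6.56, 5.56 and 5.63 in p16, 3.65, 4.17 and 3.51 with Torin2, and 2.86, 2.95 and 1.57 in p21. The order of the groups was the same in the libraries: p16, then Torin2, then p21, then mVenus, without overlap. The changes were 2.59 ± 0.22 in p16, 1.28 ± 0.26 in p21 and -0.69 ± 0.18 with Torin2 (edgeR adjusted p = 0.00276). The partner TMEM51 rose in p16 (1.16 ± 0.06) and fell with Torin2 (-0.76 ± 0.06), and was not called in p21 (-0.11 ± 0.07). Of the exonic bases of TMEM51-AS1, 47.1% are shared with other genes and 3.21% with TMEM51.

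OVOL1-AS1 lies in introns of OVOL1, a transcription factor of epithelial identity. It measured 1.69, 2.05 and 1.93 CPM in mVenus, 5.96, 5.5 and 7.06 in p16, 3.72, 4.55 and 3.90 with Torin2, and 2.64, 2.09 and 2.70 in p21. It rose in p16 (1.82 ± 0.17) and fell with Torin2 (-0.64 ± 0.15), while OVOL1 rose in both (0.58 ± 0.13 and 0.31 ± 0.12). The summed epithelial markers given above were likewise highest in p16 and lower with Torin2, but single markers differed. From p16 to Torin2, TP63 went from 36.1 to 77.6 CPM, ITGA6 from 381 to 436 and EGFR from 485 to 1051, while the other markers were lower. ITGA6 and EGFR were also lower in p16 than in mVenus (407 and 617 CPM), unlike the rest. A link of OVOL1-AS1 to these markers was not tested. In p21 the rise of OVOL1-AS1 (0.46 ± 0.19, edgeR adjusted p = 0.0496) ended without mVenus replicate 1 (adjusted p = 0.150), 2 (0.0523) or 3 (0.0784), without p21 replicate 1 (0.114) or 3 (0.156), and with a replicate block (0.0584). That rise also ended under the DESeq2 Wald test, without the low-count filter and in a fit of the 6 compared libraries alone.

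LURAP1L-AS1 was higher in both arrested groups, at 0.546, 0.456 and 0.740 CPM in mVenus, 2.11, 2.24 and 2.42 in p16 and 1.76, 1.97 and 2.39 in p21 (2.03 ± 0.25 and 1.85 ± 0.26). Torin2 brought it to 0.847, 0.898 and 1.04 CPM (-1.31 ± 0.24) while LURAP1L rose (0.62 ± 0.09). FOXD2-AS1, a lincRNA next to a forkhead factor gene, rose in p16 from 1.86, 2.43 and 1.42 to 5.12, 5.31 and 3.92 CPM (1.46 ± 0.21), and FOXD2 was not called (0.35 ± 0.18). PSMG3-AS1 rose in p16 and in p21, from 3.33, 4.18 and 3.98 CPM to 8.19, 7.16 and 5.95 and to 7.99, 8.36 and 9.74 (1.01 ± 0.16 and 1.27 ± 0.16). With Torin2 it was back at 3.78, 5.45 and 3.84 CPM (-0.75 ± 0.16), and PSMG3, a proteasome assembly chaperone gene, was called in none of these comparisons. FAM198B-AS1 rose in p21, from 1.75, 2.66 and 1.88 CPM in mVenus to 5.27, 5.22 and 3.33 (1.23 ± 0.21), and measured 2.23, 1.92 and 1.70 in p16 (0.03 ± 0.23, not called). It was higher in p21 than in p16 by 1.19 ± 0.21 (edgeR adjusted p = 7.01e-05), and FAM198B by 2.03 ± 0.15.

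**Figure D3:**
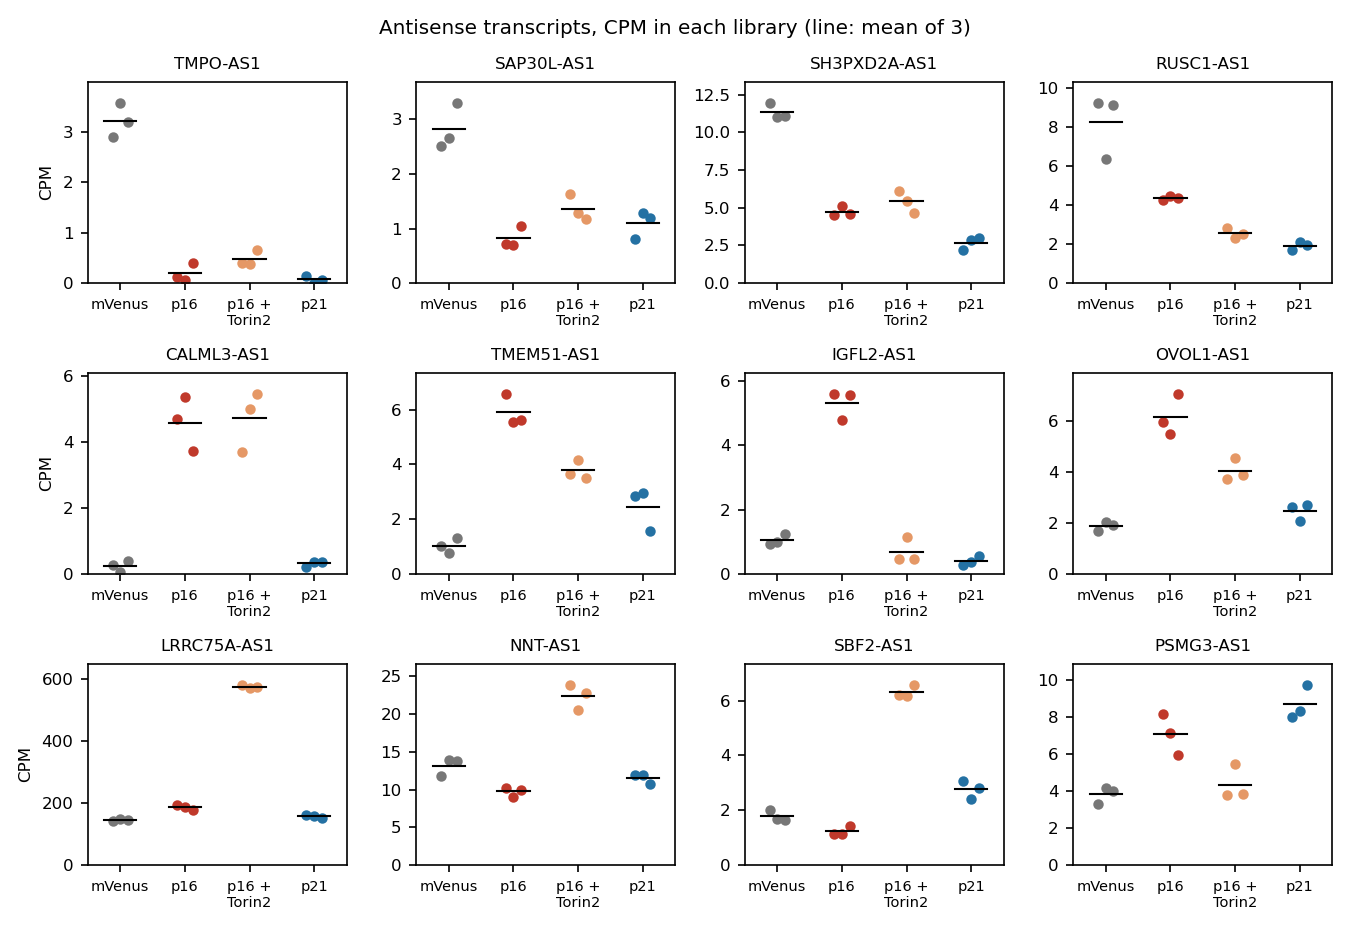
CPM of 12 antisense transcripts in each of the 12 libraries (points) with the mean of each group of 3 (line), axes from 0. The top row holds transcripts highest in mVenus, the middle row transcripts highest in p16 or equally high in both groups with p16, and the bottom row 3 that Torin2 raised, LRRC75A-AS1 to 569 to 579.6 CPM, and PSMG3-AS1.

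Torin2 raised LRRC75A-AS1 from a mean of 186 to 574 CPM, in reads the largest change of any of the transcripts. It measured 142, 149 and 146 CPM in mVenus, 193, 187 and 178 in p16, 579.6, 569 and 572 in p16 with Torin2, and 162, 156 and 151 in p21. The Torin2 libraries stood far above the rest, and p16 was also above mVenus and p21 without overlap. The change with Torin2 was 1.58 ± 0.04 (edgeR adjusted p = 3.99e-18), with 0.46 ± 0.04 in p16 and 0.17 ± 0.04 in p21. All the transcripts together took 0.112% to 0.115% of the counts in p16 and 0.167% to 0.173% with Torin2. The partner LRRC75A was near 1 CPM or below throughout, and its change with Torin2 was not called (0.51 ± 0.31).

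The next abundant transcripts rose less with Torin2. OIP5-AS1 was at 208, 197 and 222 CPM in mVenus, 209, 231 and 254 in p16, 303, 282 and 275 with Torin2 and 234, 239 and 237 in p21 (0.27 ± 0.05 with Torin2, 0.25 ± 0.06 in p16, 0.25 ± 0.06 in p21). FGD5-AS1 was at 88.7, 87.9 and 92.0 CPM in p16 and 121, 118 and 118 with Torin2 (0.37 ± 0.04), and it was not called in p16 or p21 against mVenus (0.08 ± 0.04 in each). NNT-AS1, which starts 538 bases from NNT, a mitochondrial NADPH-generating enzyme, went from 10.2, 9.08 and 10.0 CPM in p16 to 23.9, 20.6 and 22.8 with Torin2. That rise was 1.16 ± 0.09 (edgeR adjusted p = 3.64e-10), with NNT at 0.05 ± 0.05. ZEB1-AS1, whose partner ZEB1 is a factor of epithelial-mesenchymal transition, went from 1.69, 1.53 and 1.44 to 3.13, 3.78 and 3.71 CPM (1.14 ± 0.19), and ZEB1 rose by 0.47 ± 0.12. In p21 the pair parted: ZEB1 rose by 1.07 ± 0.10 and ZEB1-AS1 was not called (0.28 ± 0.22).

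SBF2-AS1 had the largest log2 rise with Torin2. It measured 1.14, 1.15 and 1.44 CPM in p16 and 6.19, 6.15 and 6.57 with Torin2 (2.30 ± 0.17, edgeR adjusted p = 5.23e-10), while SBF2 rose by 0.64 ± 0.06. Of the exonic bases of SBF2-AS1, 32.2% are shared with SBF2 and 60.6% lie in its introns. KTN1-AS1 went from 2.65, 1.73 and 1.64 to 3.85, 4.87 and 4.29 CPM (1.06 ± 0.20) beside a 0.16 ± 0.04 rise of KTN1, a kinesin-binding membrane protein gene. C1RL-AS1 went the other way from its partner: it rose from 4.21, 3 and 4.25 to 8.67, 8.78 and 6.83 CPM (1.04 ± 0.14), and C1RL, a complement protease gene, fell by 0.69 on the log2 scale (-0.69 ± 0.07).

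The deepest fall with Torin2 was that of IGFL2-AS1, a lincRNA near IGFL2. It measured 0.928, 0.987 and 1.25 CPM in mVenus, 5.60, 4.79 and 5.56 in p16, 0.456, 1.15 and 0.455 with Torin2, and 0.293, 0.369 and 0.565 in p21. It was high in p16 libraries only. The change was 2.43 ± 0.24 in p16, -2.97 ± 0.27 with Torin2 (edgeR adjusted p = 6.89e-09), or -3.56 without Torin2 replicate 2, and -1.27 ± 0.38 in p21. IGFL2 was below 1 CPM in every library and was not tested.

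SREBF2-AS1 starts near SREBF2, the master factor of cholesterol synthesis, and the pair fell together with Torin2. SREBF2-AS1 went from 4.34, 3.64 and 3.92 to 1.63, 1.67 and 2.21 CPM (-1.15 ± 0.19, edgeR adjusted p = 3.51e-05) and SREBF2 from 416, 414 and 381 to 219.8, 230.2 and 224 CPM (-0.89 ± 0.04). SPINT1-AS1, whose partner is a protease inhibitor of epithelia, went from 11, 9.40 and 9.55 to 5.67, 6.41 and 5.14 CPM (-0.84 ± 0.13), beside -0.96 ± 0.05 for SPINT1. In p16 SPINT1-AS1 had risen by 1.10 ± 0.14 while SPINT1 was not called (0.10 ± 0.04, edgeR adjusted p = 0.0677). ZNF503-AS2 rose in p16 and fell with Torin2 (1.45 ± 0.24 and -0.88 ± 0.23), as did ZNF503 (1.47 ± 0.06 and -0.35 ± 0.06). STXBP5-AS1 went from 2.35, 1.98 and 3.34 to 1.89, 0.898 and 1.30 CPM with Torin2 (-0.94 ± 0.27), beside -0.37 ± 0.05 for STXBP5.

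Transcripts that differed between p21 and p16 included several that lay on opposite sides of mVenus. WNT5A-AS1, a transcript of 500 exonic bases inside introns of the Wnt ligand gene WNT5A, measured 0.600, 1.44 and 0.683 CPM in mVenus, 0.542, 0.256 and 0.262 in p16, and 1.98, 2.21 and 3.14 in p21. The p21 libraries were above all others. Its difference between p21 and p16 was 2.72 ± 0.39, and that of WNT5A was 3.25 ± 0.11, from 3.19, 3.52 and 4.58 to 32.7, 36.9 and 39.8 CPM. The fall of WNT5A-AS1 in p16 (-1.16 ± 0.46, edgeR adjusted p = 0.0332) ended without mVenus replicate 2 (adjusted p = 0.199) and without p16 replicate 2 (0.113) or 3 (0.0949). It was not called by the DESeq2 Wald test either.

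ELF3-AS1 had the opposite order. ELF3 is an epithelium-specific transcription factor. ELF3-AS1 measured 3.06, 3.42 and 3.07 CPM in mVenus, 6.14, 5.75 and 6.61 in p16, and 0.733, 1.54 and 1.26 in p21. The 3 groups do not overlap, and the changes were 1.07 ± 0.16 in p16, -1.33 ± 0.22 in p21 and -2.40 ± 0.20 between them (edgeR adjusted p = 2.27e-09). ELF3 changed by 1.14 ± 0.10, -2.32 ± 0.15 and -3.46 ± 0.13, and 11.9% of the antisense exonic bases are shared with it.

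NR2F1-AS1, beside the nuclear receptor gene NR2F1, measured 0.181, 0.639 and 0.785 CPM in p16 and 2.27, 2.40 and 2.07 in p21, a difference of 2.04 ± 0.36, beside 2.90 ± 0.31 for NR2F1. CD27-AS1 measured 1.99, 1.28 and 0.981 CPM in p16 and 5.71, 5.65 and 5.65 in p21 (1.95 ± 0.21), and CD27, a lymphocyte receptor gene, was at or below 0.164 CPM in all libraries. ITGB2-AS1 measured 2.95, 1.21 and 2.75 CPM in p16 and 8.72, 6.09 and 7.6 in p21 (1.64 ± 0.25), beside 1.81 ± 0.05 for ITGB2, a leukocyte integrin gene. Of the exonic bases of ITGB2-AS1, 87.6% lie in introns of ITGB2. Each of the 3 was higher in every p21 library than in any p16 library, which the rule that named them required.

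Antisense and sense could be set side by side in 168 pairs with both tested. In p16 against mVenus 47 pairs were called in the same direction (29 higher, 18 lower) and 17 in opposite directions. In p21 against mVenus these were 32 (27 higher, 5 lower) and 20, with Torin2 32 (20 and 12) and 15, and in p21 against p16 40 (24 and 16) and 9. Across the pairs, Pearson's r of the log2 fold changes was 0.326, 0.230, 0.332 and 0.566 in that order, and Spearman's rho 0.349, 0.146, 0.283 and 0.441. In the 69 pairs with starts within 1000 bases, r was 0.545, 0.509, 0.420 and 0.462, and rho 0.382, 0.121, 0.336 and 0.437. These values describe pairs measured in the same libraries, some with shared bases. Where many genes are called, some pairs match in direction from the separate shares of calls alone. How many would do so was not worked out, so the counts alone do not show that partners move together. Partners as a group split more evenly than the antisense transcripts: of 166 tested, 57 rose and 53 fell in p16, and 58 rose and 45 fell in p21.

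**Figure D4:**
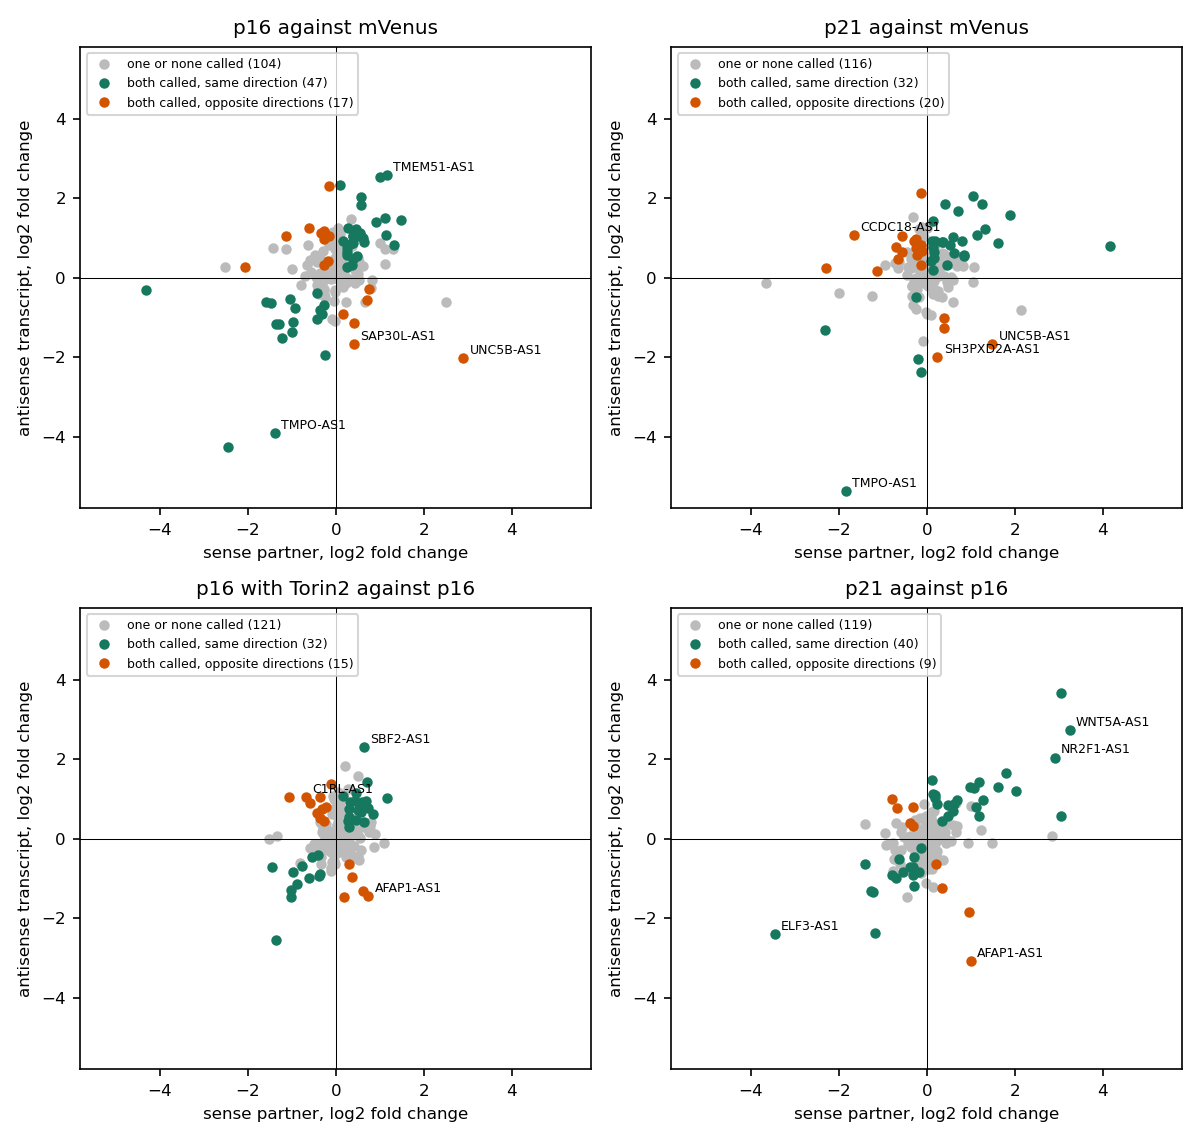
Log2 fold change of the sense partner (x axis) and of the antisense transcript (y axis) for 168 pairs in each comparison, green where both were called in the same direction and orange where they were called in opposite directions. Orange points are 17 in p16 against mVenus and 9 in p21 against p16, and WNT5A-AS1, NR2F1-AS1 and ELF3-AS1 lie near the diagonal in the last panel.

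Some pairs moved apart. SAP30L-AS1 starts 107 bases from SAP30L, a subunit of a histone deacetylase complex, on the other strand, with no shared base. SAP30L-AS1 measured 2.51, 2.66 and 3.30 CPM in mVenus, 0.723, 0.703 and 1.05 in p16, and 0.806, 1.29 and 1.19 in p21 (-1.67 ± 0.25 and -1.27 ± 0.24). SAP30L went from 51.6, 49.8 and 52.9 CPM to 66.4, 65.4 and 59.6 and to 66.6, 63.2 and 63.1 (0.42 ± 0.06 and 0.39 ± 0.06). All mVenus libraries were above the others for the antisense transcript and below them for the partner.

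UNC5B-AS1 lies in introns of UNC5B, a netrin receptor gene, and went the opposite way from it. It reached 1 CPM in mVenus only and measured 0.819, 1.37 and 1.02 CPM there, 0.181, 0.320 and 0.196 in p16, and 0.366, 0.430 and 0.126 in p21 (-2.04 ± 0.41 and -1.68 ± 0.39). UNC5B rose from 16.1, 17.5 and 18.9 CPM to 126, 117 and 122 in p16 (2.90 ± 0.07) and to 50.0, 45.7 and 45 in p21 (1.49 ± 0.08). SH3PXD2A-AS1, described above, also fell beside a rise of its partner (0.41 ± 0.06 in p16 and 0.24 ± 0.06 in p21 for SH3PXD2A).

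In another set of pairs the antisense transcript rose and the partner fell. CCDC18-AS1 went from 3.77, 2.89 and 3.93 CPM in mVenus to 7.29, 6.07 and 7 in p16 and 7.25, 7.19 and 7.04 in p21 (1.03 ± 0.14 and 1.07 ± 0.14). CCDC18, a coiled-coil protein gene, went from 12.6, 13 and 14.1 CPM to 5.42, 4.86 and 6.67 and to 3.81, 3.93 and 4.27 (-1.12 ± 0.12 and -1.65 ± 0.13). In both arrested groups the antisense libraries were all above and the partner libraries all below those of mVenus. PAXIP1-AS1 rose by 1.17 ± 0.17 in p16 and 1.06 ± 0.18 in p21, and PAXIP1, a gene of the DNA damage response whose start is 364 bases away, changed by -0.26 ± 0.08 and -0.57 ± 0.08. OIP5, a centromere gene, fell in p16 (-2.07 ± 0.28) and in p21 (-2.28 ± 0.29) while OIP5-AS1 rose slightly, as given above.

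AFAP1-AS1 crossed its partner in the other comparisons. It measured 0.600, 1.06 and 1.31 CPM in mVenus, 1.51, 1.34 and 1.64 in p16, 0.521, 0.641 and 0.520 with Torin2, and 0.220, 0 and 0.314 in p21. The p16 libraries, through which it was taken in, were the highest, and the p21 libraries the lowest. Torin2 lowered it (-1.44 ± 0.38) where AFAP1, an actin-filament protein gene, rose (0.74 ± 0.06). In p21 against p16 it was lower (-3.08 ± 0.48), or -2.47 without p21 replicate 2 and -3.83 without p21 replicate 3, and AFAP1 was higher (1 ± 0.05). In p21 against mVenus it fell (-2.37 ± 0.51, or -1.76 and -3.12 without the same libraries), as did AFAP1 (-0.13 ± 0.05).

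**Figure D5:**
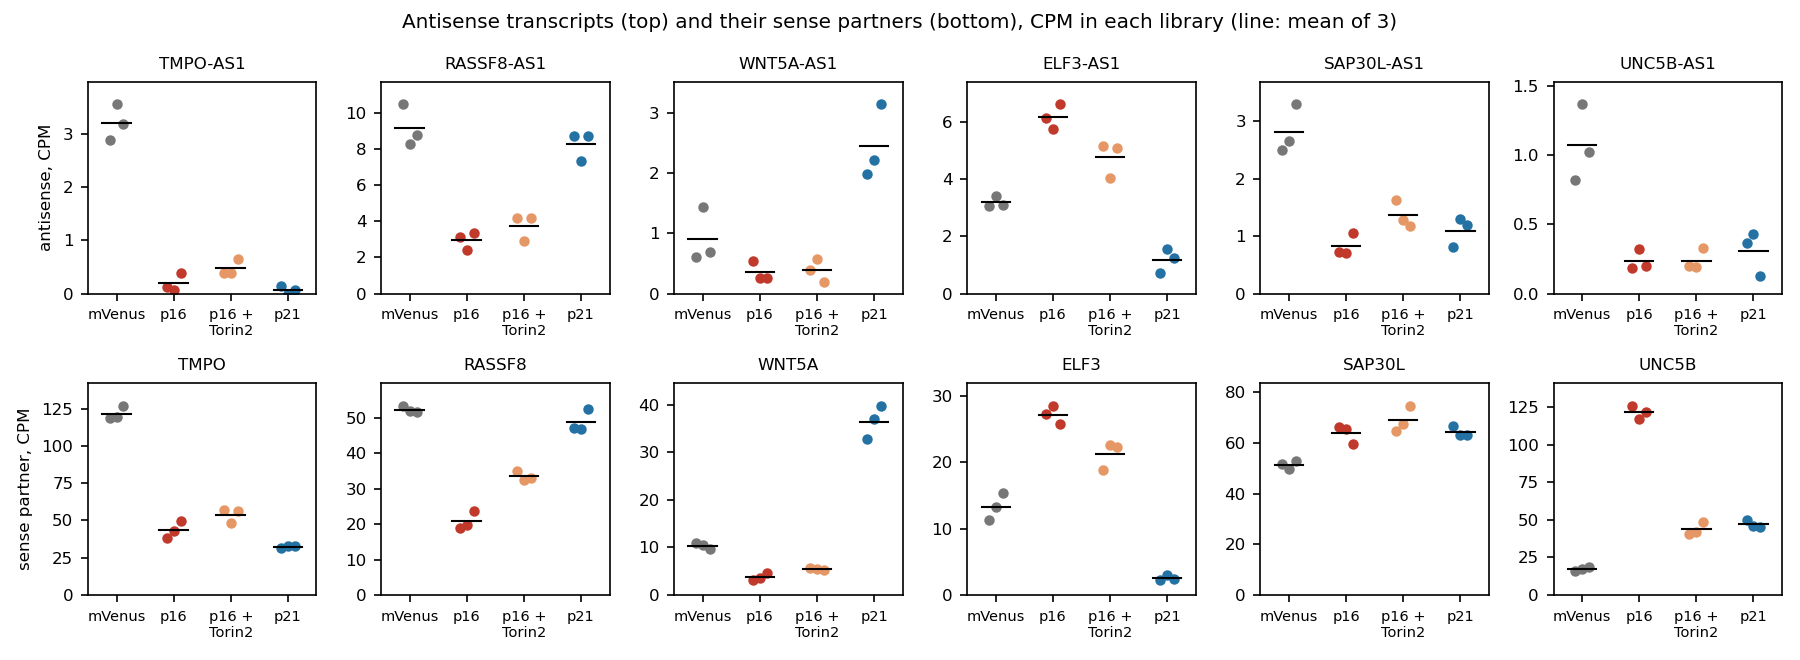
CPM in each library (points) and group means (lines) for 6 antisense transcripts (top) and their sense partners (bottom), axes from 0. TMPO, RASSF8, WNT5A and ELF3 keep much the same order of groups as their antisense transcripts, while SAP30L and UNC5B are lowest in mVenus, where SAP30L-AS1 and UNC5B-AS1 are highest.

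GAS6-AS1, at 1 CPM in mVenus only, measured 1.09, 1.14 and 1.02 CPM there and 0.542, 0.703 and 0.196 in p16 (-1.04 ± 0.35). The edgeR call of that difference ended without p16 replicate 3 (adjusted p = 0.0898), and the difference was not called by the DESeq2 Wald test. GAS6, the ligand of a family of receptor kinases, was not called in p16 (-0.08 ± 0.05) and rose in p21 (0.60 ± 0.05).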

How the data were processed

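Per the labels' protocols, 12 libraries of polyadenylated RNA were made with a kit that keeps the strand. Each library has a file of deposited counts, made with featureCounts 1.6.3 on GENCODE 29 with no strand option, per the file headers. By default featureCounts leaves reads on exons of several genes unassigned. Without a strand option this holds for genes on opposite strands as well. The submitters' processing notes name HISAT2, FastQC 0.11.3 and the genome GRCh38.p7. CPM is counts over the library's total, which ranged from 13168749 to 18321114, and depth limits the scarce transcripts most. The 14504 genes that passed filterByExpr entered 1 fit of all 12 libraries in edgeR 4.0.16 (R 4.3.3; TMM, quasi-likelihood F-test, 8 residual degrees of freedom), with Benjamini-Hochberg adjustment over all of them at 0.05. The scripts were tested on simulated counts. The common biological coefficient of variation was 3.94%, and p-values measure the spread between these libraries. Floors are 3 counts over the 3 libraries of a group, and they and the exact interval cover counting error only.

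The transcripts, the lists and the tests were chosen with earlier results of these data known. Named were, per comparison, the 6 highest and 6 lowest called changes whose higher group had a mean of 2 CPM or more and whose libraries did not overlap, the 6 most abundant, pairs called in opposite directions, and OIP5-AS1, TMPO-AS1, ZEB1-AS1, HOXA-AS2, GAS6-AS1 and CDKN2B-AS1, with their partners; values are printed for the clearest of these, and 1 transcript of the rule is not reported here. Alternatives were scaling by DESeq2 size factors or upper quartiles, the DESeq2 1.42.0 Wald test, leaving the filter out, fitting the 6 compared libraries alone, a replicate block, leaving out each library, and leaving out genes over 30% shared. Figures were drawn with Python 3.11.15 and matplotlib 3.10.9. The authors' tables of comparisons were not used here.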

Additional observations from a re-analysis of the deposited data

Results flagged for a closer look

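In 8 transcripts the p16 and p21 groups were called on opposite sides of mVenus. The difference between p21 and p16 was called in all 8 in the same edgeR fit. That choice of transcripts all but fixed this call, so it is not a separate result. Over all genes tested, 63.7% were called in p16 and 56.4% in p21 against mVenus. Opposite calls were not counted over all genes, so the 8 are not set apart from other genes. Higher in p21 than in p16 were WNT5A-AS1 (log2 difference 2.72, taken in through p21 only), NR2F1-AS1 (2.04), CD27-AS1 (1.95), ITGB2-AS1 (1.64), TRAM2-AS1 (1.29) and SH3RF3-AS1 (0.97). Lower were IGFL2-AS1 (-3.70) and ELF3-AS1 (-2.40). TRAM2-AS1 and SH3RF3-AS1, which were singled out after their values were seen, changed by -0.62 and -0.39 in p16 and by 0.67 and 0.58 in p21, against mVenus.

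The side of mVenus is less firm than the difference between p21 and p16 for WNT5A-AS1 in p16, as given above, and for ITGB2-AS1, NR2F1-AS1 and CD27-AS1. The p21 calls of ITGB2-AS1, NR2F1-AS1 and CD27-AS1 also ended under the DESeq2 Wald test. Both calls of IGFL2-AS1 and of ELF3-AS1 against mVenus were kept in every alternative run. TRAM2-AS1 and SH3RF3-AS1 were not followed through the alternative runs. The rise of ITGB2-AS1 in p21 (0.54, edgeR adjusted p = 0.0392) ended without mVenus replicate 1 (adjusted p = 0.135) or 3 (0.0830) and without p21 replicate 1 (0.147) or 3 (0.09). That of NR2F1-AS1 in p21 (0.88, edgeR adjusted p = 0.0188) ended without mVenus replicate 1 (adjusted p = 0.0548) or 3 (0.112) and without p21 replicate 2 (0.0588), and its fall in p16 (-1.16) without mVenus replicate 2 (0.0769) or p16 replicate 1 (0.0936). That of CD27-AS1 in p21 (0.48, edgeR adjusted p = 0.0226) ended without mVenus replicate 1 (adjusted p = 0.115) or p21 replicate 3 (0.0528).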

How the results depend on the processing

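Under the DESeq2 Wald test 9 transcripts fell in p21 against mVenus, 28 rose with Torin2, and 19 were higher and 24 lower in p21 than in p16; the cause was not tested. Over all genes the same counts went from 4102 to 3474, 4400 to 3607, 3944 to 3415 and 3938 to 3449. The remaining counts went down too. Transcripts called higher went from 67 to 52 in p16 (all genes 4487 to 4187) and from 71 to 49 in p21 (4085 to 3708). Those called lower went from 30 to 21 in p16 (4751 to 4167) and from 24 to 17 with Torin2 (4208 to 3906). In each case the share lost was larger among the transcripts. With each library left out in turn, p16 gave 61 to 67 higher and 25 to 29 lower, p21 57 to 65 and 12 to 18, Torin2 39 to 49 and 20 to 26, and p21 against p16 27 to 35 and 29 to 35. Without genes over 30% shared, 62 rose and 26 fell in p16, and 67 and 11 in p21. No called change of a named transcript changed sign; uncalled ones near 0 did, such as RASSF8-AS1 in p21 (-0.15 to 0.02). Calls kept in every alternative run that tested the named transcript were 38 of 47 in p16 and 29 of 44 in p21. They were 29 of 41 with Torin2 and 24 of 37 in p21 against p16. The run without genes over 30% shared was counted over the list only and is not among these runs. At 0.5 CPM the rule would take 270 transcripts and at 2 CPM 122. With the replicate number as a block, 69 rose and 29 fell in p16, and 69 and 14 in p21. The counts were 53 and 24 with Torin2, and 37 and 35 in p21 against p16. Libraries of 1 number had correlations of -0.0822 to 0.0754 in their deviations, and 6 of 12 correlated best with their own number. With 3 libraries per group, such values cannot tell whether the number pairs the libraries. Depth limits transcripts near 1 CPM, where a library holds few reads.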
